A study of Homo sapiens with 2 samples.

Results

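Genes of 10 families of transcription factors that set cell lineage were examined on 2 Affymetrix whole-transcript arrays of A549 cells, an established human lung adenocarcinoma line. One array read siP62 cells, which had received an siRNA to p62/SQSTM1, and the other siCONTROL cells, which had received a control siRNA; total RNA was taken with Trizol 24 hours later. No allele or agent other than the siRNA is named for either group, and no untransfected cells were analysed here. Each group held 1 array, so no difference below has a replicate error and no test between the groups was possible. The genes were those whose symbol is a numbered HOX, SOX, FOX, GATA, PAX, NKX, KLF, TBX, HNF, ELF or GRHL gene, on a probe set with exactly 1 symbol and without antisense symbols. This gave 154 of the 14884 named genes of the table. Each gene was read from its probe set with the highest mean of both arrays. Of the 154, 153 code for protein in RefSeq. SOX2-OT, a long noncoding RNA overlapping SOX2, and FOXL2NB, a neighbour of FOXL2 that is not itself a forkhead factor, entered by their symbols. Of 182 coding RefSeq symbols of the same form, 29 were not named in the table and were not analysed here, among them all 4 HNF genes, ELF3, FOXC1 and all HOXA genes other than HOXA2.

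These proteins bind short DNA motifs through a family-specific domain, such as the homeodomain of HOX, NKX and many PAX proteins, the forkhead of FOX proteins, the HMG box of SOX proteins and the zinc fingers of GATA and KLF proteins. Combinations of them fix the identity of a tissue in the embryo and hold it in the adult. In lung, NKX2-1, FOXA1, FOXA2 and GATA6 act in the epithelium, SOX2 marks proximal airway and SOX9 the distal tips of the growing tree, and TBX4, TBX5 and FOXF1 act in the mesenchyme. Families also hold antagonists: KLF proteins include activators and repressors that bind like GC-rich and CACCC sequences.

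By the deposited values none of the lineage factor genes above the level limit differed between the arrays by 1.5-fold, though KLF12 and PAX7 lay within rounding of it. The limit was the median log2 value of all named probe sets on both arrays, and a gene was kept if its higher value reached it. TBX19 lay at the limit itself on both arrays, SOX15 just above it at 5.36 and FOXN4 just below it at 5.34. This held for 81 of the 154 genes (52.6%), against 53.1% of all named genes. Differences are given as siP62 minus siCONTROL in log2 units, in which 1.5-fold is 0.585. Of the 81 kept genes, 0 were 1.5-fold higher and 0 were 1.5-fold lower by the deposited values. Of all 7896 kept genes 2.08% were higher and 1.6% lower by 1.5-fold, 3.67% together. Among all kept genes these shares stand for 164 higher and 126 lower, a split that turned to 127 higher and 154 lower once the median difference was subtracted and to 130 higher and 154 lower after a lowess curve over level was. At 2-fold the counts were 0 either way, against 0.393% of all kept genes. KLF12 and PAX7 lay at 0.58, 1.49-fold higher, and since the values are deposited to 2 decimals they cannot be placed on either side of 1.5-fold. The count of 0 higher, and its contrast with all kept genes, is therefore uncertain. The siRNA target itself differed more, with SQSTM1 at a log2 value of 7.30 in siP62 cells, against 8.64 in siCONTROL cells, a difference of -1.34.

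Below this size the kept lineage factor genes were spread much like all kept genes. Their median difference was 0.01 over 81 genes, with a robust SD (scaled median absolute deviation) of 0.24 over genes, against 0.04 and 0.22 for all kept genes. Of the 81, 41 were higher (50.6%), 36 lower and 4 equal, where 55.4% of all kept genes were higher. Differences of 0.2 or more either way occurred in 33 of the 81 (40.7%), against 39.6% of all kept genes, and differences of 0.4 or more in 10 (12.3%), against 11.6%. The spread over genes of like level is not a replicate error; its robust SD ran from 0.15 to 0.39 over 20 bins of level.

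**Figure D1:**
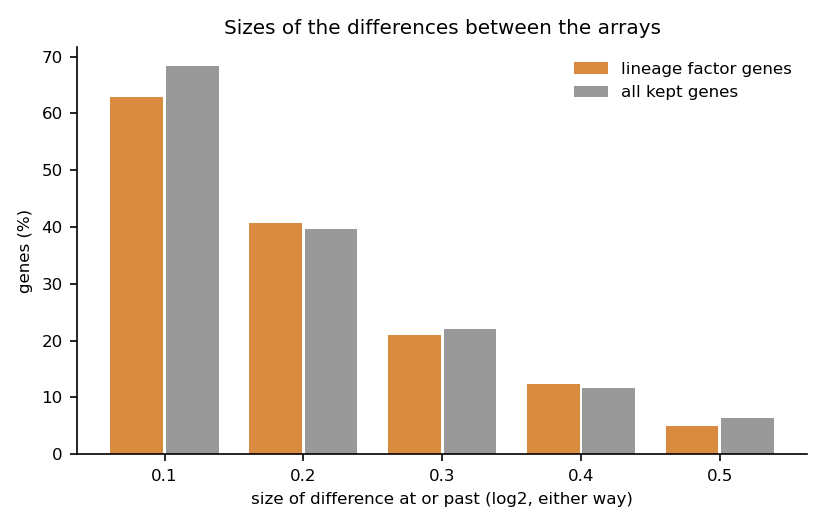
Share of genes (%, y axis) whose difference between the siP62 and siCONTROL arrays was at or past 0.1 to 0.5 on the log2 scale, either way (x axis), for the 81 kept lineage factor genes (left bars) and all 7896 kept genes (right bars). The shares lie side by side, 40.7% and 39.6% at 0.2 and 4.94% and 6.40% at 0.5.

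The limit is not a detection call, and values of different probe sets are not amounts that can be compared. Of the 81 kept genes, 75 lay at or above the limit on both arrays, 3 in the siP62 array alone and 3 in the siCONTROL array alone. SOX15, SOX21 and HOXD11 reached it in siP62 cells alone and HOXB13, FOXD4L1 and GATA2 in siCONTROL cells alone, so the sign of these 6 differences follows from how they were kept. By their higher value TBX19, SOX15 and TBX10 (5.47) lay just inside the limit, and FOXN4, SOX8 (5.31) and NKX2-5 (5.22) just outside it. Factors known from other lineages were also above it. GATA1, the erythroid factor, had 6.13 in siP62 and 6.15 in siCONTROL cells, and FOXP3, the factor of regulatory T cells, had 5.86 and, in siCONTROL cells, 6.01. Of the 6 leukocyte markers named in the table only CD14 and CD68 were above the limit, while SPI1 (4.97 in siP62 and 5.13 in siCONTROL cells) and LYZ (3.06 and, in siCONTROL cells, 3.02) were below it. A value between the limit and that of GATA1 is not shown here to mean expression of the gene.

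**Figure D2:**
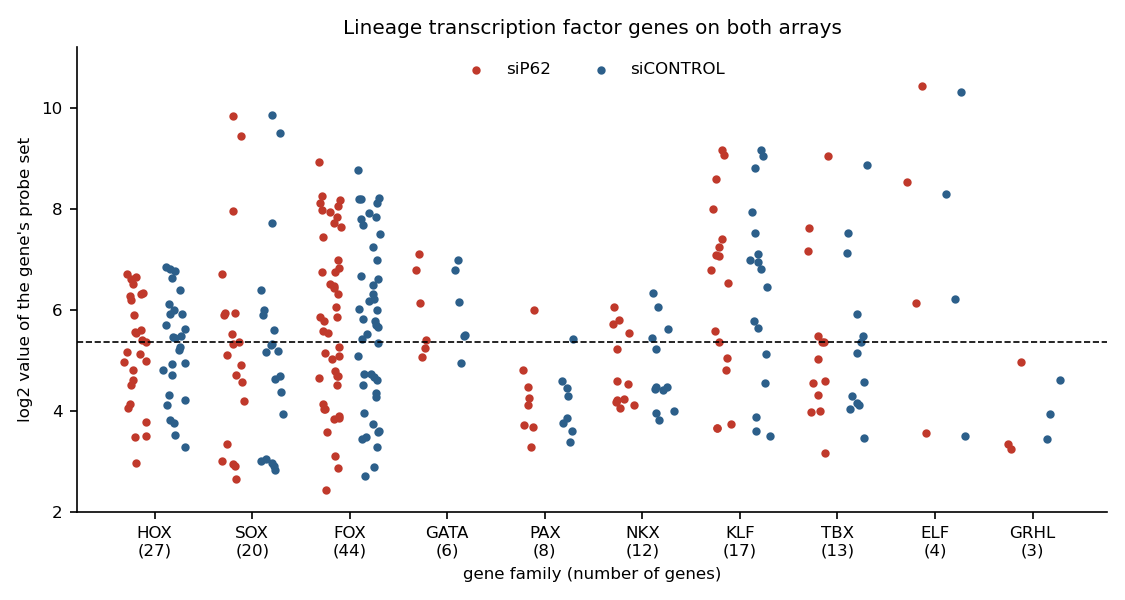
Log2 value (y axis) of each of the 154 lineage factor genes by family (x axis, number of genes below), with the siP62 array at the left and the siCONTROL array at the right of each family; the dashed line is the level limit. No GRHL gene and 1 of 8 PAX genes reach the line, against 5 of 6 GATA and 12 of 17 KLF genes.

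**Figure D3:**
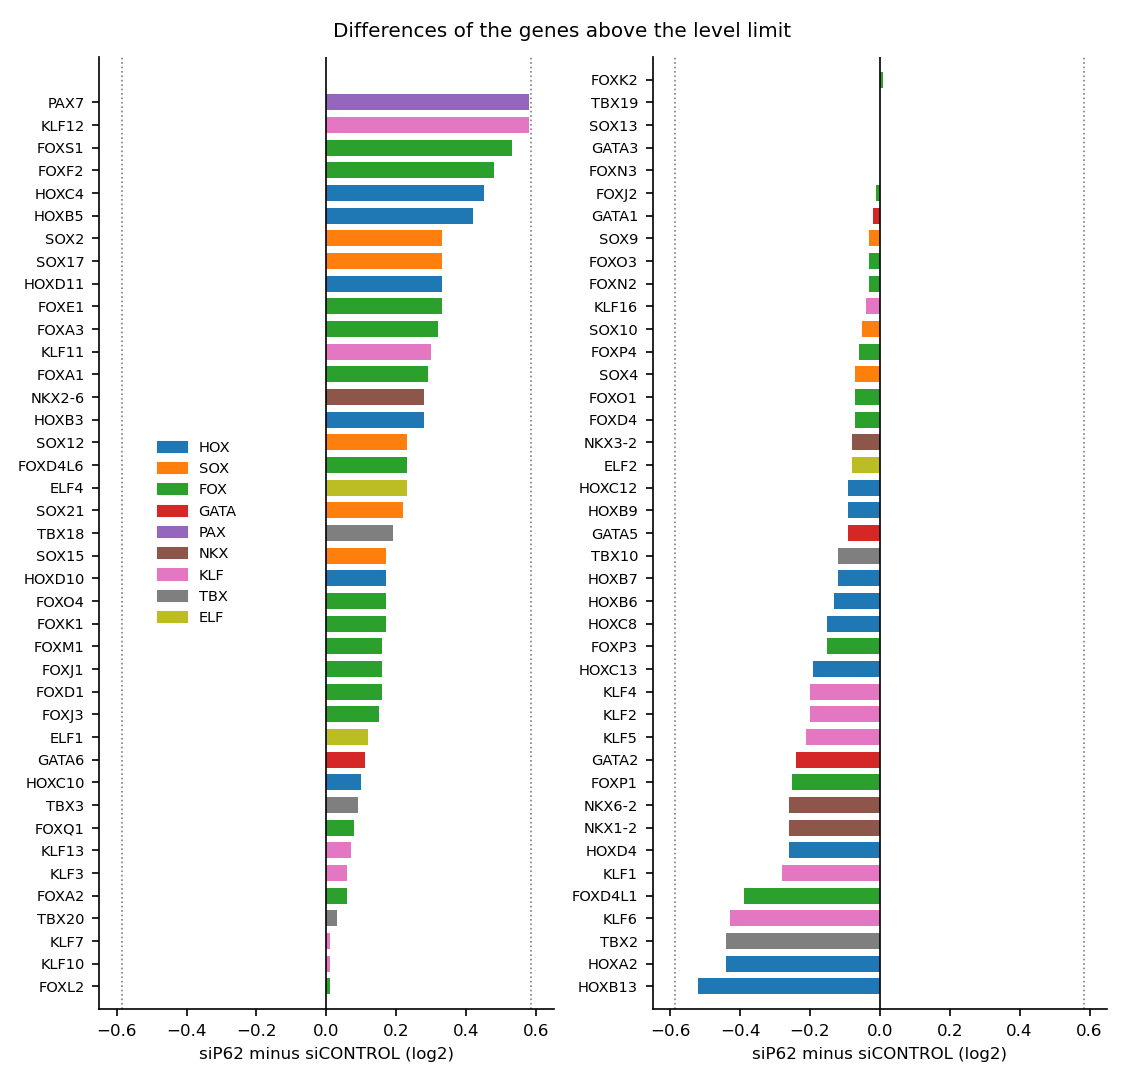
Difference, siP62 minus siCONTROL on the log2 scale (x axis), of the 81 kept lineage factor genes in order of size (rows), coloured by family; dotted lines mark 1.5-fold. All bars lie inside the dotted lines, from -0.52 for HOXB13 to 0.58 for KLF12 and PAX7. HOXB13 reached the level limit in siCONTROL cells alone, so its sign follows from how it was kept.

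Of 17 KLF genes 12 were kept, 6 of them higher and 6 lower in siP62 cells, where 55.4% of all kept genes were higher. All 6 activators were kept, and 5 of them were lower, with a group median of -0.21. KLF6, a widely expressed activator, had a log2 value of 7.08 in siP62 cells and 7.51 in siCONTROL cells, a difference of -0.43 or 1.35-fold lower. The erythroid activator KLF1 differed by -0.28, with a siP62 value at the limit itself and a siCONTROL value of 5.63. KLF5, an activator of epithelial growth, had 8.59 in siP62 and 8.80 in siCONTROL cells. These 3 genes were lower in siP62 cells, as were the flow-responsive endothelial factor KLF2 (6.79 in siP62 and 6.99 in siCONTROL cells) and the barrier and pluripotency factor KLF4 (5.57 in siP62 and 5.77 in siCONTROL cells), each by 0.20. KLF7 had 9.17 in siP62 and 9.16 in siCONTROL cells, a difference of 0.01, which is the last decimal of the deposited values. Apart from KLF6 and KLF5, the difference of each activator was about the robust SD of genes of like level or less, 0.25 for KLF2, 0.24 for KLF4 and 0.27 for KLF1; it was 0.24 for KLF6 and 0.19 for KLF5.

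The promoters of the lower activators are shown, without KLF5, to which RefSeq gives 2 starts. They were chosen by the sign of the differences above, so their boxes are a description only. Promoters of KLF7 and of the KLF genes outside this group were not set beside them. Whether the boxes relate to the differences was not tested. Each line holds the 250 bases before the start of the gene on GRCh38.p14, from RefSeq, 5′ to 3′ on the gene's strand, with the GC box GGGCGG or its reverse CCGCCC in capitals. The windows are chr19:12887202-12887451 on the minus strand for KLF1, chr19:16324576-16324825 on the plus strand for KLF2, chr9:107489770-107490019 on the minus strand for KLF4 and chr10:3785210-3785459 on the minus strand for KLF6.
KLF1 promoter: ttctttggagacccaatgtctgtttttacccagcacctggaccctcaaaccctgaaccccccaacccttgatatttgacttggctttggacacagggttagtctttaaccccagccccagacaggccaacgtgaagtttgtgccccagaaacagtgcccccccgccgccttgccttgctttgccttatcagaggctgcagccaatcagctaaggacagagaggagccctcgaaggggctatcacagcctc
KLF2 promoter: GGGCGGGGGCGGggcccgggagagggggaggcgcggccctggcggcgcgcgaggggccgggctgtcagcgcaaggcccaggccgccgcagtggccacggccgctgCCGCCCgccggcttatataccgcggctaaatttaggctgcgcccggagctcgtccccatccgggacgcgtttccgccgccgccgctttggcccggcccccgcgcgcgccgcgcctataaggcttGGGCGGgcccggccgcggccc
KLF4 promoter: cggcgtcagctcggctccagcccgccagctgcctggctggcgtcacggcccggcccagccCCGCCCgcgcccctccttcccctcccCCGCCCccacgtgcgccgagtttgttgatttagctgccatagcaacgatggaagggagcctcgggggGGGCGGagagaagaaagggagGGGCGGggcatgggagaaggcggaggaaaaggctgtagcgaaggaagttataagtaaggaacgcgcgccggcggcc
KLF6 promoter: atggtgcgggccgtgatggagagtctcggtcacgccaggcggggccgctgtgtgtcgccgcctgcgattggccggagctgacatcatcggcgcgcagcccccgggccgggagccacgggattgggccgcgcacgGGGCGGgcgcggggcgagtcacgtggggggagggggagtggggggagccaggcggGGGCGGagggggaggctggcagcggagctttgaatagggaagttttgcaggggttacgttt
The GC box occurred 4 times in the KLF2 and KLF4 windows and 2 times in that of KLF6, and was not found in that of KLF1. Of all 35116 promoter windows of this length in the table, 42.6% held it. The CACCC box, searched as CACCC or GGGTG, was in none of these windows and in 54.7% of all windows. These are letter matches in a short window and were not tied to binding. Promoters were matched for 107 of the 154 lineage factor genes (69.5%), too few for a comparison of sequence content over the families, which was not made.

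The remaining KLF genes are mostly repressors. KLF12, a repressor that recruits CtBP, had 7.39 in siP62 and 6.81 in siCONTROL cells. Together with PAX7 it had the largest difference among the kept lineage factor genes. The KLF12 difference was larger than the robust SD of genes of like level, 0.21. Differences of 0.5 or more either way occurred in 6.40% of all kept genes. KLF3 of the same group had 7.99 in siP62 and 7.93 in siCONTROL cells, and KLF8 lay below the limit. Of the group that binds the corepressor SIN3A, 4 of 6 were kept. KLF11, an early response gene of TGF-beta, was 0.30 higher at 7.24 in siP62 and 6.94 in siCONTROL cells. KLF10, KLF13 and KLF16 differed by 0.01, 0.07 and -0.04, and KLF9 and KLF14 were below the limit. The groups were drawn from known protein partners with these values already seen, so their contrast is a description of 2 arrays. Among 18 relatives and partners of the KLF proteins named in the table, 15 were kept, 10 of them higher and 5 lower, with a median of 0.02. The ubiquitin ligase WWP1, which acts on KLF proteins, had 8.58 in siP62 and 8.94 in siCONTROL cells. CTBP1 had 6.21 in siP62 and 5.93 in siCONTROL cells, and CTBP2 had 5.29 and, in siCONTROL cells, 5.65. Because CTBP2 reached the limit in siCONTROL cells alone, the sign of its difference follows from how it was kept.

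**Figure D4:**
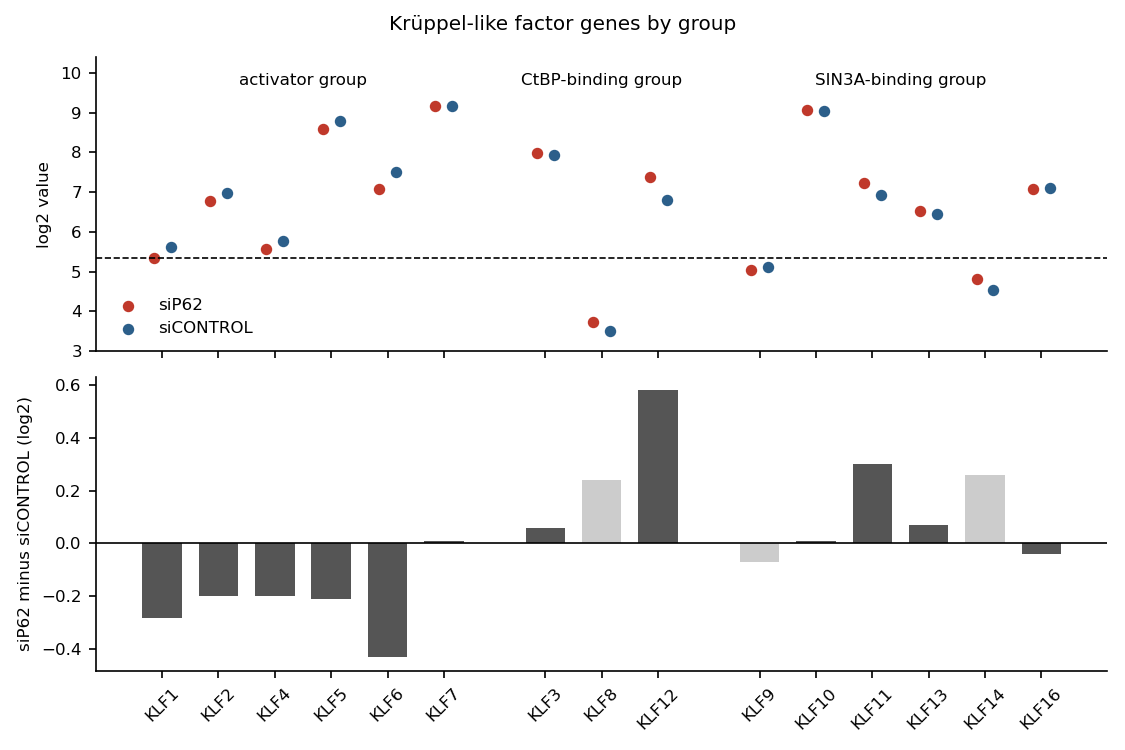
Krüppel-like factor genes by group (x axis), with log2 values of the siP62 array (left point) and siCONTROL array (right point) above, the dashed line at the level limit, and the difference siP62 minus siCONTROL on the log2 scale below. Dark bars are kept genes and pale bars genes below the limit; 5 of 6 activators have bars below 0, and KLF12 reaches 0.58.

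The forkhead family was the largest, with 44 genes, of which 26 were kept. Of these 16 were higher (61.5%), 9 lower and 1 equal, with a median difference of 0.07. Among all kept genes 55.4% were higher. The FOXA pioneer factors, which open chromatin in lung, liver and gut endoderm, were all kept and all higher in siP62 cells. FOXA3 had 6.31 in siP62 and 5.99 in siCONTROL cells, a difference of 0.32, and FOXA1 had 6.06 in siP62 and 5.77 in siCONTROL cells, a difference of 0.29. FOXA2 differed by 0.06, close to the median of all kept genes, with 8.25 in siP62 and 8.19 in siCONTROL cells. The differences of FOXA1 and FOXA3 exceeded the robust SD of genes of like level, 0.22 and 0.25. Either way, 39.6% of all kept genes differed by 0.2 or more and 22.0% by 0.3 or more. Of 17 named liver genes that HNF and FOXA factors control 7 were kept, 2 higher and 5 lower, with a median of -0.03. Among the lower ones FGA, ONECUT2 and AMBP differed by only -0.01, -0.03 and -0.07. APOA1 (5.19 in siP62 and 5.66 in siCONTROL cells) reached the limit in siCONTROL cells alone, so its sign follows from how it was kept. APOH, a plasma glycoprotein, differed by 0.37, and the fibrinogen chain FGB by -0.29 (8.18 in siP62 and 8.47 in siCONTROL cells).

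The highest difference among kept forkhead genes was that of FOXS1, which had 6.74 in siP62 and 6.21 in siCONTROL cells, a difference of 0.53. FOXF2, a factor of gut and palate mesenchyme, had 7.72 in siP62 and 7.24 in siCONTROL cells, 1.39-fold higher. Its relative FOXF1, which is needed for lung mesenchyme and vessels, lay below the limit and differed the other way, with 4.65 in siP62 and 5.09 in siCONTROL cells. FOXQ1, encoded beside FOXF2 in the genome, differed by 0.08, and FOXD1, a factor of kidney stroma, by 0.16. FOXE1, the thyroid forkhead factor, was 0.33 higher, with 6.51 in siP62 and 6.18 in siCONTROL cells. The lowest among the kept ones was that of FOXD4L1, with 5.27 in siP62 and 5.66 in siCONTROL cells. It reached the limit in siCONTROL cells alone, so its sign follows from how it was kept. FOXD4L1 is 1 of several near-identical FOXD4 copies between which probes may not separate; FOXD4 itself differed by -0.07, and the 2 probe sets of FOXD4L6 differed by 0.23 and -0.24.

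FOXO proteins, which insulin signalling keeps out of the nucleus, drive genes of autophagy and oxidant defence. The genes FOXO1, FOXO3 and FOXO4 were kept, with small differences in the probe sets used. FOXO6 was not named in the table. FOXO1 had 6.42 in siP62 and 6.49 in siCONTROL cells and FOXO4 had 5.86 in siP62 and 5.69 in siCONTROL cells. FOXO3 depended on its probe set: that with the higher mean had 5.78 in siP62 and 5.81 in siCONTROL cells, and the other, below the limit, had 5.16 in siP62 and 4.72 in siCONTROL cells, a difference of 0.44. FOXO3 has the copy FOXO3B in the genome, and the probes were not checked against it. FOXO target genes had a median of -0.20 over 11 kept of 17 named, with 8 lower and 3 higher and none 1.5-fold different. The median over all 17 was 0.05, so its sign depended on the limit. Among the targets CAT, the catalase gene, had 8.01 in siP62 and 8.51 in siCONTROL cells, and INSR, the insulin receptor gene, had 5.99 in siP62 and 6.38 in siCONTROL cells; the list shares KLF2 with the lineage factor genes.

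FOXM1, which drives mitotic genes, had 8.92 in siP62 and 8.76 in siCONTROL cells, a difference of 0.16. Its target genes were all above the limit, 17 of 17 named, of which 11 were higher, 5 lower and 1 equal, with a median of 0.08. The higher ones make 64.7%, against 55.4% of all kept genes. The mitotic kinase AURKA differed by 0.30, the checkpoint target CDC20 by 0.26 and the mitotic kinesin KIF20A by -0.25. The 3 kept FOXP repressors were all lower in siP62 cells. FOXP1, which restrains secretory lung genes, had 7.43 in siP62 and 7.68 in siCONTROL cells, FOXP4 differed by -0.06 and FOXP3 by -0.15. FOXJ1, the master factor of motile cilia, had 6.46 in siP62 and 6.30 in siCONTROL cells. FOXK1, which represses autophagy genes in fed cells, had 7.97 in siP62 and 7.80 in siCONTROL cells, and its relative FOXK2 differed by 0.01. FOXN3 was equal on both arrays at 6.98, and FOXN2 and FOXJ2 differed by -0.03 and -0.01.

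SOX9 and SOX4 differed by less than 0.1 between the arrays. SOX9, of distal lung progenitors, had 9.83 in siP62 and 9.86 in siCONTROL cells, and SOX4, a factor of progenitor and cancer cells, had 9.43 in siP62 and 9.50 in siCONTROL cells. Of 20 genes with a SOX symbol 9 were kept, 5 of them higher, 3 lower and 1 equal, with a median of 0.17. SOX15 and SOX21 were kept through the siP62 array alone; over the 7 genes at or above the limit on both arrays 3 were higher, 3 lower and 1 equal, with a median of 0, and the median over all 20 was 0.04. The largest differences were those of SOX2, of proximal airway and stem cells, with 6.71 in siP62 and 6.38 in siCONTROL cells, and of SOX17, of endoderm and vessels, with 5.93 in siP62 and 5.60 in siCONTROL cells. Both differed by 0.33, above the robust SD of genes of like level, 0.22 and 0.24. Differences of 0.3 or more either way occurred in 22.0% of all kept genes. SOX2-OT, which overlaps SOX2, was below the limit and differed by -0.02. SOX12, a relative of SOX4, was higher by 0.23 and 0.14 in its 2 probe sets. SOX13 was equal at 5.90, and SOX10, the neural crest factor, differed by -0.05.

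SOX proteins modulate the beta-catenin and TCF complex of Wnt signalling, whose genes were listed beside them. Of 10 named genes 7 were kept, and all 7 were higher in siP62 cells, where 55.4% of all kept genes were, with a median of 0.19 over them. NKD1, a Wnt feedback inhibitor, had 6.73 in siP62 and 5.95 in siCONTROL cells, a difference of 0.78 and the only 1 past 1.5-fold. Either way, 3.67% of all kept genes were past 1.5-fold. The receptor LGR6 differed by 0.37, the feedback gene AXIN2 by 0.28 (7.01 in siP62 and 6.73 in siCONTROL cells) and the receptor ligase RNF43 by 0.19. The other kept genes lay close to the median of all kept genes, 0.04, with LGR4 and DKK1 at 0.06 and ZNRF3 at 0.08. LEF1, a Wnt transcription factor below the limit, differed by -0.70. The collagen targets of SOX9 in the list were not named in the table.

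HOX genes give position along the body axis and lie in clusters in the order of their expression domains. They had 27 members, of which 15 were kept, with 6 higher and 9 lower and a median of -0.09. HOXD11 among the higher and HOXB13 among the lower reached the limit on 1 array alone, so their signs follow from how they were kept. Among all kept genes 55.4% were higher. Neighbours within a cluster went both ways. In the HOXB cluster HOXB3 and HOXB5 were higher and HOXB6, HOXB7 and HOXB9 lower in siP62 cells. HOXB5, which patterns airway branching in the mouse, had 6.33 in siP62 and 5.91 in siCONTROL cells, whereas its neighbour HOXB6 had 6.50 in siP62 and 6.63 in siCONTROL cells. HOXB7 and HOXB9 differed by -0.12 and -0.09, and HOXB4, between HOXB3 and HOXB5, lay below the limit with 4.61 in siP62 and 4.70 in siCONTROL cells. HOXB13, the prostate factor at the far end of the cluster, had the lowest difference of all kept lineage factor genes, -0.52, with 5.17 in siP62 and 5.69 in siCONTROL cells. HOXB13 reached the limit in siCONTROL cells alone, so the sign of this difference follows from how it was kept and its size is uncertain.

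In the HOXC cluster HOXC4 had 5.90 in siP62 and 5.45 in siCONTROL cells, a difference of 0.45. HOXC8, next to it among the genes measured, went the other way with 6.70 in siP62 and 6.85 in siCONTROL cells, as did HOXC13, a hair and nail factor, with 6.61 in siP62 and 6.80 in siCONTROL cells. HOXC11 was among the 3 lineage factor genes below the limit whose values differed by more than 1.5-fold, with 4.50 in siP62 and 3.82 in siCONTROL cells. In the HOXD cluster HOXD10 and HOXD11, both of limb and trunk, were higher by 0.17 and 0.33. HOXD11 reached the limit in siP62 cells alone, so its sign follows from how it was kept. HOXD4 was lower by 0.26, and its 2 probe sets differed by -0.26 and -0.25. HOXA2, the hindbrain and branchial arch factor and the only HOXA gene named, had 5.56 in siP62 and 6.0 in siCONTROL cells, a difference of -0.44. Over all families, 34 pairs of the genes lie next to each other by start among protein-coding genes. The differences had the same sign in 14 pairs, and in 4 of the 7 pairs with both genes kept. Among these 4 was the pair of HOXD11 and HOXD10, in which the sign of HOXD11 follows from how it was kept.

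**Figure D5:**
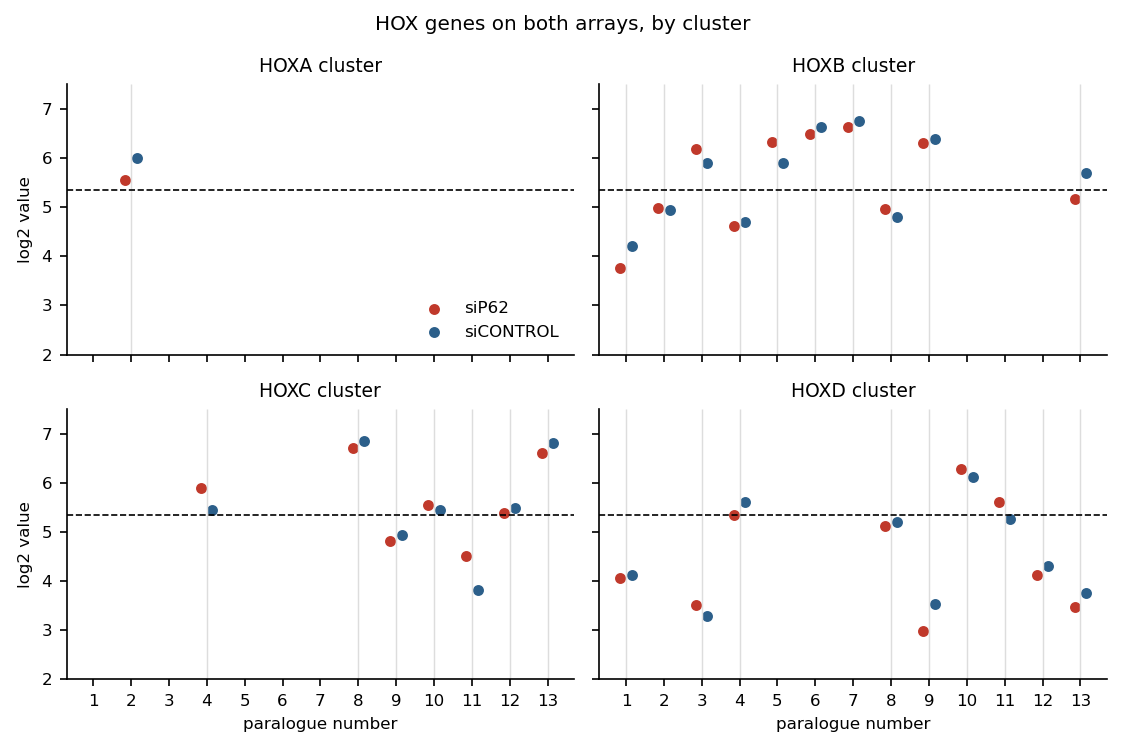
Log2 values (y axis) of the 27 named HOX genes by paralogue number (x axis) in 4 clusters, with the siP62 array at the left and the siCONTROL array at the right of each number; the dashed line is the level limit. HOXB5, HOXB6, HOXB7 and HOXB9 lie above the line on both arrays with HOXB8 below it, and HOXB13 crosses it.

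HOX proteins bind DNA with PBX, MEIS and PKNOX partners. In a list of these partners and TGIF1, 5 of 8 named genes were kept, 3 higher and 2 lower, with a median of 0.03. TGIF1 itself, which is not one of these partners, was among the lower ones at -0.11. PBX2 had 6.97 in siP62 and 6.73 in siCONTROL cells, and MEIS2 had 6.08 in siP62 and 6.28 in siCONTROL cells. Of the chromatin regulators that keep HOX genes on or off, 13 of 14 named were kept, 4 of them higher, 8 lower and 1 equal, with a median of -0.02. CBX2, a Polycomb subunit, was the only 1 past 1.5-fold, with 6.29 in siP62 and 5.57 in siCONTROL cells. Of all kept genes 3.67% were past 1.5-fold either way. KDM6A, which removes the Polycomb mark, had 6.87 in siP62 and 7.36 in siCONTROL cells, and EZH2, which writes it, had 7.23 in siP62 and 7.49 in siCONTROL cells.

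Among the factors of lung and endoderm, GATA6 had 7.10 in siP62 and 6.99 in siCONTROL cells, while GATA4 lay below the limit with 5.07 in siP62 and 4.95 in siCONTROL cells. GATA3, of T cells and luminal epithelium, was equal at 6.79, and GATA5 differed by -0.09. GATA2, of blood stem cells, had 5.24 in siP62 and 5.48 in siCONTROL cells. NKX2-1, the lung and thyroid factor, was below the limit in both of its probe sets, with 4.24 in siP62 and 4.41 in siCONTROL cells for the brighter and 2.52 in siP62 and 2.42 in siCONTROL cells for the dimmer. Of its lung targets 3 of 11 were kept, and SFTPC, which defines alveolar type II cells, was at 4.27 on both arrays. The surfactant genes SFTPD (5.27 in siP62 and 5.85 in siCONTROL cells) and SFTPB (5.30 in siP62 and 5.66 in siCONTROL cells) were above the limit in siCONTROL cells alone. The sign of their differences therefore follows from how they were kept. LPCAT1, the other kept target, was above it on both arrays, with 7.86 in siP62 and 7.72 in siCONTROL cells. Over all 11 targets the median difference was 0.03. All 5 simple epithelium markers were kept, among them KRT18 (11.97 in siP62 and 11.95 in siCONTROL cells) and EPCAM (7.59 in siP62 and 7.38 in siCONTROL cells). Mesenchymal genes were also above the limit, VIM with 8.44 in siP62 and 8.25 in siCONTROL cells and FN1 with 12.07 in siP62 and 12.11 in siCONTROL cells. Of the markers of other cell types named in the table, 1 of 8 endothelial, 2 of 3 fibroblast, 2 of 3 club and ciliated, 1 of 10 basal and squamous and 4 of 9 neuroendocrine ones were kept. Of all named genes 53.1% were kept. The endothelial CLDN5, the fibroblast LUM and the neuroendocrine CHGB reached the limit in siP62 cells alone. NGFR, the basal marker, reached it in siCONTROL cells alone. FOXJ1, counted with the ciliated markers, is itself one of the lineage factor genes.

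Of 12 NKX genes 4 were kept, 3 of them lower and 1 higher in siP62 cells. NKX6-2, an oligodendrocyte factor, had 6.06 in siP62 and 6.32 in siCONTROL cells, NKX1-2 also differed by -0.26, and NKX2-6 had 5.72 in siP62 and 5.44 in siCONTROL cells. NKX2-2, below the limit, had probe sets that differed by -0.24 and 0.43. PAX7, the factor of muscle stem cells, was the only PAX gene kept, with 6.0 in siP62 and 5.42 in siCONTROL cells; the siCONTROL value lies near the limit, and 1 probe set read the gene. PAX8, of thyroid and kidney, was at 4.46 in siP62 and 4.45 in siCONTROL cells.

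The T-box genes TBX2 and TBX3, repressors that delay senescence, went different ways. TBX2 had 5.48 in siP62 and 5.92 in siCONTROL cells, a difference of -0.44, and TBX3 had 7.61 in siP62 and 7.52 in siCONTROL cells. TBX4 and TBX5, their neighbours in the genome and factors of limb and lung mesenchyme, lay below the limit. TBX18, of heart pacemaker and ureter mesenchyme, had 9.05 in siP62 and 8.86 in siCONTROL cells, and TBX20, of heart, had 7.16 in siP62 and 7.13 in siCONTROL cells. Of 13 T-box genes 6 were kept, 3 higher, 2 lower and 1 equal. GATA and T-box partners had a median of 0.05 over 12 kept of 20 named, with 6 higher, 5 lower and 1 equal.

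The ETS factors ELF1, ELF4 and ELF2 were kept. ELF1 had 10.42 in siP62 and 10.30 in siCONTROL cells and ELF4 8.52 in siP62 and 8.29 in siCONTROL cells, while ELF2 differed by -0.08; ELF5, of mammary and placental epithelium, lay below the limit. Grainyhead-like factors, which hold epithelial junction genes open, were all below it, among them GRHL2 with 3.34 in siP62 and 3.44 in siCONTROL cells. GRHL1 had 3.25 in siP62 and 3.93 in siCONTROL cells, and FOXD3, a neural crest factor, had 4.14 in siP62 and 3.43 in siCONTROL cells. With HOXC11 these make 3 of 73 genes below the limit (4.11%) that differed by 1.5-fold, against 4.77% of all named genes below it. Over all 154 genes without a limit these 3 remain the only ones past 1.5-fold by the deposited values (1.95%), against 4.19% of all named genes. KLF12 and PAX7, at 0.58, cannot be placed on either side of 1.5-fold, so this share is uncertain. Epithelial genes that GRHL and ELF factors control had a median of 0.06 over 6 kept of 12 named, with 4 higher and 2 lower; the splicing regulator ESRP1 (3.37 in siP62 and 3.09 in siCONTROL cells), ESRP2, CLDN4, ST14, OVOL1 and OVOL2 lay below the limit. A list of mesenchymal transition factors, which also held the mesenchymal genes VIM and FN1, had a median of 0.04. Of its 12 named genes 8 were kept, with 4 higher and 4 lower. TCF4 differed by 0.40 and ZEB1, which represses epithelial genes, by -0.28.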

How the data were processed

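The authors deposited log2 values of 48226 probe sets on each array. Per the submitters' processing notes the values come from RMA and Transcriptome Analysis Console 4.0.2.15. RMA, as commonly defined, makes the arrays' distributions alike, so a shift of all genes would not be seen. No source used here names the probe sets' genome build, and scanner files were not used. The platform annotation named 16098 probe sets with 1 gene symbol and 0 with several. All 16098 gene identifiers matched RefSeq of GRCh38.p14. Column medians were 4.02 (siP62) and 4.07 (siCONTROL).

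Differences, medians and robust SDs were computed with pandas 2.3.3 and numpy 2.4.6 under Python 3.11.15, and a lowess curve with statsmodels 0.14.6 (span 0.3). The procedure was tested on simulated data. The text may name every kept gene, listed genes with large differences, and a fixed set of low lineage factors; the others were named after their values were seen. The genes and the 19 gene lists were chosen with earlier results of these data known. The level limit was 5.35, and 7896 of 14884 genes reached it. The number of arrays limits the precision. 7 alternatives were tried: median, lowess or quantile centring, averaging the probe sets of a gene, and 3 other filters.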

Additional observations from a re-analysis of the deposited data

How the results depend on the processing

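With 1 array per group no replicate could be left out, and no paired analysis was possible because no result comes from a test. SQSTM1 lay between -1.39 and -1.34 under the 7 alternatives. Without a filter all 154 lineage factor genes entered, 2 were 1.5-fold higher and 1 was 1.5-fold lower; in the other 6 alternatives both counts were 0, and the counts at 2-fold were 0 in all 7. With the filter at the 70th percentile, a log2 value of 6.67, 38 genes were kept. Of all genes, 305 were higher and 318 lower by 1.5-fold without a filter and 85 and 82 at the 70th percentile, against 164 and 126 as reported. The median difference of the kept lineage factor genes, 0.01, turned to -0.03 after subtraction of the median difference of all kept genes, to -0.034 after the lowess curve and to -0.025 after quantile normalization. At 1.5-fold the split of all kept genes turned to 127 higher and 154 lower after median subtraction. With the mean over probe sets FOXO3 differed by 0.205 and FOXD4L6 by -0.005. Without a filter the medians of NKX2-1 lung targets and alveolar type II markers turned to 0.03 and 0.015; the FOXO target median turned to 0.05 and the KLF median to 0.01. The cause was not tested beyond the change of genes entered.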

Other observations

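Antisense transcripts at these loci stood outside the gene list. Of 8 such transcripts in the table, 3 reached the level limit. HOXA10-AS, from the HOXA cluster, had 5.78 in siP62 and 5.29 in siCONTROL cells, a difference of 0.49. FOXD2-AS1 differed the other way, with 6.0 in siP62 and 6.47 in siCONTROL cells, and its coding neighbour FOXD2 lay below the limit with 4.51 in siP62 and 4.35 in siCONTROL cells. HOXC13-AS had 6.17 in siP62 and 6.32 in siCONTROL cells, a difference of -0.15 beside one of -0.19 for HOXC13. KLF3-AS1 (-0.10), TBX5-AS1 (-0.41) and HOXA11-AS (-0.20) lay below the limit, and FOXN3-AS1 and FOXN3-AS2 were equal on both arrays. Whether the probes separate the strands was not tested.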
